A study of Homo sapiens with 4 samples.

Results

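To describe how the actin cytoskeleton genes were marked after TWEAK removal, H3K27ac peaks were examined at 10 genes, chosen by name, of the 19970 protein-coding genes on chromosomes 1 to 22 and X. The members were the cytoplasmic actins ACTB and ACTG1, the smooth muscle actin ACTA2, the actin-binding transgelins TAGLN and TAGLN2, the calponin CNN2, the myosin regulatory light chain MYL9, the tropomyosins TPM1 and TPM4, and the transcription factor SRF. A peak was counted as a promoter peak if it overlapped the 1 kb on either side of the canonical start site, and as a peak of the locus if it overlapped the gene body or the 50 kb on either side. MDA-MB-231 and Hs578T are established triple-negative breast cancer cell lines. In the 4 libraries, 2 biological replicates per line, cells were starved for 8 h and given 10 ng/ml of TWEAK, the cytokine ligand of the receptor Fn14, for 48 h. The labels put the washout that followed at 72 h, although the study describes a longer period without TWEAK, and which of these applies is not settled by the lists. Every library came from washed-out cells. Cells without TWEAK or during treatment were not analysed here, and no value below is an effect of TWEAK or of its removal.

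Actin polymerises from monomers into filaments, and tropomyosins, calponins, transgelins and myosin light chains bind or move those filaments. SRF binds a short DNA element, the CArG box, and recruits either the MRTF coactivators, which are released when monomeric actin is used up, or the ternary complex factors of the ELK family downstream of MAP kinase. Actins, tropomyosins, transgelins and SRF itself are among its textbook targets, and in carcinoma cells these genes are known for their part in motility and the mesenchymal state. H3K27ac, acetylation of lysine 27 of histone H3, marks active promoters and enhancers.

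The list of MDA-MB-231 replicate 1 stood apart. It held 209 peaks, whereas the other 3 lists (MDA-MB-231 replicate 2, Hs578T replicate 1 and Hs578T replicate 2) held 43353, 46330 and 44920 and are called the 3 large lists. Only 0.0601% of all protein-coding genes carried a promoter peak there, and none of the 10 members did. MDA-MB-231 is therefore described by replicate 2 alone unless stated, and a mean over both its lists is given where a value depends on this. Read counts were not used here, so depth is unknown. Among marker genes, the promoters of the mesenchymal genes VIM, AXL, CD44, CAV1 and FN1 were marked in each large list. Of the luminal genes, 1 of 6 (KRT18) was marked in each of them and EPCAM in 2 lists, and of the immune genes 0 of 4 were marked. Of all protein-coding genes, 55.6% were marked in each large list. EPCAM was marked in all 3 large lists if any start site of its basic transcripts was allowed.

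The sequences next to the start sites are shown first, because the CArG box is the element that SRF binds. A CArG box is CC, 6 bases that are each A or T, then GG. Promoter entries (250 bases before to 50 after a start site) came from a RefSeq table on GRCh38.p14 (hg38) with 35116 entries, and 7 of the 10 members were matched. ACTB, TAGLN and MYL9 had no entry. In the genome sequence, exact boxes nevertheless began 62 bases before the canonical start site of ACTB and 134 before that of MYL9. At TAGLN they began 156 and 283 bases before it. All of these lay under peaks in the 3 large lists. Of the 6 members with an entry at the canonical start site, 3 held an exact CArG box, ACTG1, CNN2 and SRF, beside 1.29% of all promoters in the table. SRF held 2, at 30 to 21 and at 10 to 1 bases before its start site. ACTG1 held its box 94 to 85 bases before the start site and CNN2 89 to 80 bases before it. The upstream start site of TPM4 held a box 173 to 164 bases before it, whereas the canonical TPM4 and TAGLN2 entries held none. ACTA2 held no exact box but 2 elements with 1 mismatch, here meaning that 1 of the 6 central bases is G or C, at 121 to 112 and 71 to 62 bases before its start site, and 8.13% of all promoters hold an element with at most 1 mismatch of this kind, which includes the exact boxes. Mismatches in the outer CC or GG were not searched. In the lines below, which leave out bases of annotated exons, capitals mark CArG boxes and, for ACTA2, elements with 1 mismatch, and each is written 5′ to 3′ on the strand of the gene.
SRF, 250 to 1 bases before the start site, chr6:43171019-43171268, plus strand: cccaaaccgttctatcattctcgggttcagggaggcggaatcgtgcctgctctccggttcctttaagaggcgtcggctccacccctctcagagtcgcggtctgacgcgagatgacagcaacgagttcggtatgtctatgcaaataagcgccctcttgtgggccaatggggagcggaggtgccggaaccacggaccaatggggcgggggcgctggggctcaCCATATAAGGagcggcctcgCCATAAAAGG
ACTG1, 250 to 53 bases before the start site, chr17:81512852-81513049, minus strand: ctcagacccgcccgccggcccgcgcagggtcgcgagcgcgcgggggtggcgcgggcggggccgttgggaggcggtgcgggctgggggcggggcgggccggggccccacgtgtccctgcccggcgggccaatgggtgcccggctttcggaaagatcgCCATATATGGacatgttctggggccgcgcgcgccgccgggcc
CNN2, 250 to 23 bases before the start site, chr19:1026358-1026585, plus strand: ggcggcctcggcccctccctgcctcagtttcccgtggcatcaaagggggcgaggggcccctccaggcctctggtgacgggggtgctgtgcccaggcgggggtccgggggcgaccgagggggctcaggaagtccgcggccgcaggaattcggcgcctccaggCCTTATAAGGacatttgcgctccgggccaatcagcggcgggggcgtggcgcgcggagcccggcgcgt
TPM4 upstream start site, 231 to 5 bases before the start site, chr19:16067307-16067533, plus strand: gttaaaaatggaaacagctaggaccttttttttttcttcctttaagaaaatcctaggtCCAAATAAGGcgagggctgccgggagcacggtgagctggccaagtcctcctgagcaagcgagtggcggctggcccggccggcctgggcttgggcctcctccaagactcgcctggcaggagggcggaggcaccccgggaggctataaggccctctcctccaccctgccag
ACTA2, 250 to 1 bases before the start site, chr10:88952774-88953023, minus strand: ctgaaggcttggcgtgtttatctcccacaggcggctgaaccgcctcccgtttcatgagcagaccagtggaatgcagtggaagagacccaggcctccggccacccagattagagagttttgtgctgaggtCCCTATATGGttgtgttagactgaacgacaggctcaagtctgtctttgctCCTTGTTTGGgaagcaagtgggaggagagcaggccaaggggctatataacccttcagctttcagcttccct
These are matches of letters and not measured binding sites, and since the members were picked as known SRF targets, their CArG share is not independent evidence of anything about SRF.

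Promoter peaks were found at 8 of the 10 members in each of the 3 large lists, beside 58.1% of all protein-coding genes in MDA-MB-231 replicate 2, 58.2% in Hs578T replicate 1 and 56.4% in Hs578T replicate 2. They were the same 8 genes, and 55.6% of all genes were marked in each of the 3 lists. The mean over both lists was 8.0 ± 0.0 (SD, n = 2) members in Hs578T and 4.0 ± 5.66 (SD, n = 2) in MDA-MB-231, the latter because replicate 1 marked none. ACTA2 and TPM1 had no promoter peak at their canonical start sites in any list.

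Peaks were strongest at TPM4, a non-muscle tropomyosin. Its promoter peak (chr19:16075258-16081911 in MDA-MB-231 replicate 2, hg38) had a fold enrichment over background of 44.5 in MDA-MB-231 replicate 2, 40.5 in Hs578T replicate 1 and 32.1 in Hs578T replicate 2. These values ranked 7 of 11595, 10 of 11629 and 7 of 11264 among the marked genes of each list. Since fold enrichment is set against each library's own background, it is compared between lists only by its percentile among marked genes. That percentile was 99.9 for TPM4 in all 3 lists.

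**Figure D1:**
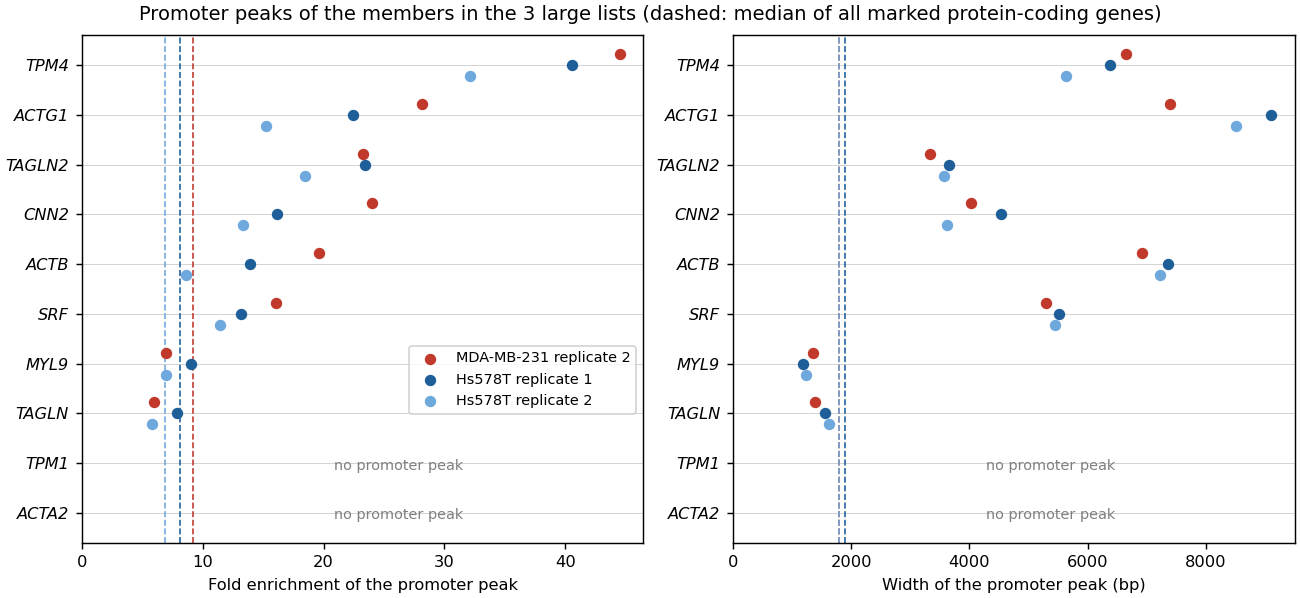
Fold enrichment (left) and width in bp (right) of the promoter peak of each member in the 3 large lists, 1 point per list; dashed lines are the medians over all marked protein-coding genes of each list (for width, those of MDA-MB-231 replicate 2 at 1792 bp and Hs578T replicate 2 at 1804 bp nearly coincide). TPM4 lies furthest right on the left panel, TAGLN and MYL9 lie near the medians or below, and TPM1 and ACTA2 have no promoter peak.

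In the actins, both on the minus strand, ACTG1 (chr17:81509041-81516434 in MDA-MB-231 replicate 2) had a fold enrichment of 28.1 in MDA-MB-231 replicate 2, 22.4 in Hs578T replicate 1 and 15.2 in Hs578T replicate 2. ACTB (chr7:5526123-5533040), whose product is the other cytoplasmic actin, had 19.6, 13.9 and 8.66 in the same order. ACTG1 was above ACTB in every large list, at percentiles of 98.7, 96.6 and 93.4 against 91.8, 81.6 and 66.4. The 2 Hs578T replicates lay further apart in percentile for ACTB than for any other member.

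CNN2 (chr19:1026020-1030054), an actin-binding calponin found outside muscle, had 24.0, 16.2 and 13.4, at percentiles of 96.7, 87.9 and 88.9. TAGLN2 (chr1:159922772-159926102), the transgelin of non-muscle cells, had 23.3, 23.5 and 18.5 and stayed between percentiles 96.1 and 97.4. CNN2 and TAGLN2 therefore changed places between lists, with CNN2 slightly above in MDA-MB-231 replicate 2 and TAGLN2 above in both Hs578T lists. SRF itself (chr6:43170149-43175440) had 16.1, 13.2 and 11.4, at percentiles of 84.3, 79.1 and 82.0.

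The lowest promoter peaks were those of MYL9 and TAGLN, both widely used as markers of contractile cells. MYL9 (chr20:36540720-36542082) had 6.999, 9.01 and 6.99, at percentiles of 33.2, 56.8 and 51.3. TAGLN (chr11:117198491-117199880) had 5.96, 7.88 and 5.78, at percentiles of 24.3, 48.0 and 37.97, below the median of marked genes in all 3 lists. MYL9 was above TAGLN in each list, but the highest TAGLN percentile exceeded the lowest of MYL9, so that their ranges overlapped. The other 6 marked members lay above the median in each large list, and no value of theirs fell into the range of MYL9 or TAGLN. Among those 6, TPM4 stood alone, the ranges of ACTG1, TAGLN2 and CNN2 overlapped, and so did those of ACTB with CNN2 and with SRF.

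Between lines, the percentile of MDA-MB-231 replicate 2 lay above both Hs578T lists for 5 members (ACTB, ACTG1, CNN2, TPM4 and SRF) and below both for 3 (TAGLN, TAGLN2 and MYL9). For TPM4 this was in effect a tie with Hs578T replicate 2. Both lists had it at rank 7, of 11595 and of 11264, and at percentile 99.94. Over all 11112 genes marked in the 3 lists, 40.6% lay above and 37.4% below, so that lying outside the Hs578T pair was common to most genes. With 1 usable MDA-MB-231 list there was no replicate spread for that line and no test. Even with 2 lists per line an exact two-sided permutation test could not give a p-value below 0.333.

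Widths separated the members into broad and narrow. ACTG1 had promoter peaks of 7394, 9104 and 8501 bp in MDA-MB-231 replicate 2, Hs578T replicate 1 and Hs578T replicate 2. ACTB followed with 6918, 7359 and 7231 bp, TPM4 with 6654, 6382 and 5629 bp, and SRF with 5292, 5514 and 5444 bp. These 4 genes lay over the 90th percentile of width among marked genes in every large list. CNN2 with 4035, 4535 and 3625 bp and TAGLN2 with 3331, 3662 and 3575 bp were intermediate. TAGLN with 1390, 1553 and 1620 bp and MYL9 with 1363, 1194 and 1231 bp were narrower than the median of all marked genes, which was 1792, 1897 and 1804 bp. The median over the 8 marked members was 4663.5, 5024.5 and 4534.5 bp, and in Hs578T it was 4779.5 ± 346 bp (SD, n = 2).

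The broad peaks of TPM4, ACTB and SRF ran further downstream than upstream of the start site. At TPM4 the peak reached 1237, 1163 and 967 bp upstream of the start site and 5416, 5218 and 4661 bp downstream. At SRF it reached 1120, 1251 and 1306 bp upstream and 4171, 4262 and 4137 bp downstream. ACTG1 was the most even of the broad peaks, with 3635, 3862 and 3707 bp upstream and 3758, 5241 and 4793 bp downstream. Peaks were longer downstream at 6, 7 and 7 of the 8 marked members, beside 56.9%, 56.6% and 55.4% of genes whose start site lay inside a peak. TAGLN was the exception in every list, reaching 879, 1019 and 1118 bp upstream but 510, 533 and 501 bp downstream.

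**Figure D2:**
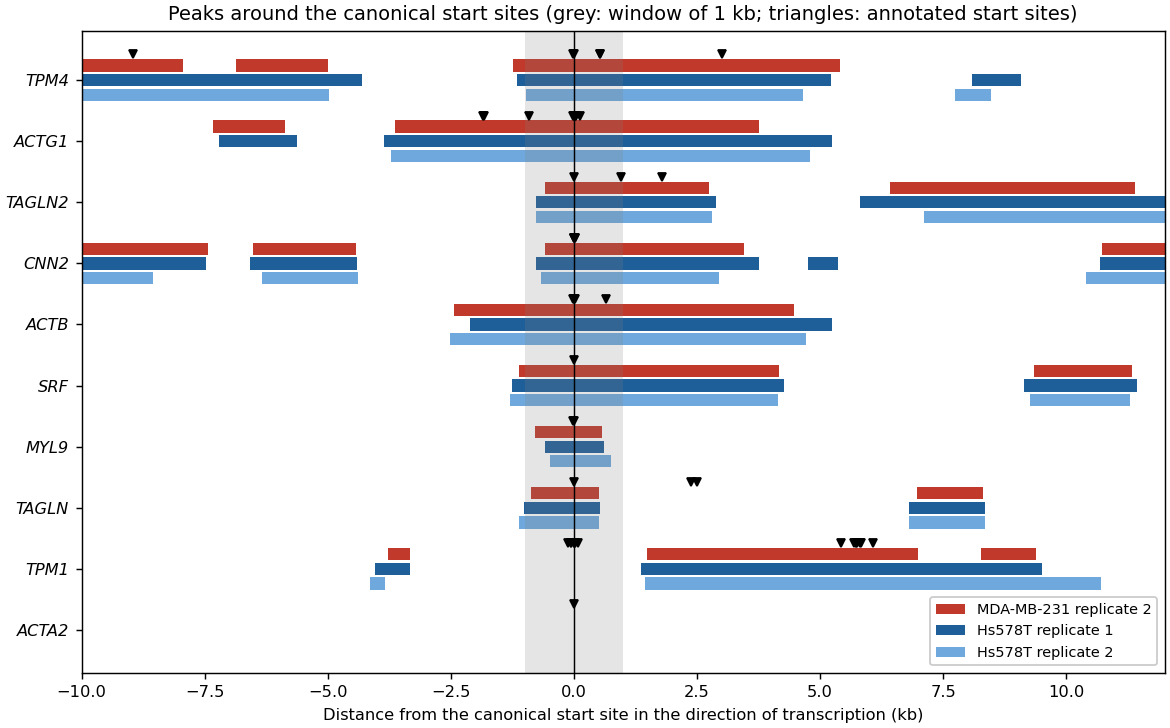
Peaks from 10 kb upstream to 12 kb downstream of the canonical start site of each member in the 3 large lists, 1 bar per peak, cut at the edges of the plot. Triangles are start sites of basic transcripts and grey marks the window of 1 kb on either side; the peaks of TPM4, ACTB and SRF run further downstream than upstream, the TPM1 peak starts past the window and covers the internal start sites, and no peak falls in the range of ACTA2.

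TPM1, the tropomyosin gene that makes long and short isoforms from separate start sites, was marked inside the gene rather than at its canonical start. All 8 annotated start sites between 115 bp upstream and 83 bp downstream of the canonical site were free of peaks in every list. A peak (chr15:63044226-63049747 in MDA-MB-231 replicate 2), which covered exonic and intronic sequence, began 1479, 1364 and 1436 bp downstream of the canonical site and was 5522, 8151 and 9274 bp wide, with a fold enrichment of 12.3, 10.6 and 9.50. All 8 internal start sites, 5422 to 6079 bp downstream, lay under it. The RefSeq entry for the internal start site held 39 CpG dinucleotides (percentile 91.8 of all entries) and no CArG box. An exact CArG box lay further inside the gene, under a peak in each large list and touching no annotated exon. In MDA-MB-231 replicate 2 that was a separate weak peak of 3.34 (chr15:63051016-63052128), and in both Hs578T lists the wide peak above. The box is shown in capitals with 20 bases on either side.
TPM1, 8815 bp downstream of the canonical start site, chr15:63051542-63051591, plus strand: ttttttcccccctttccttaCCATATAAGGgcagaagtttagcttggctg

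TPM4 was marked at both of its main start regions. Besides the canonical start, the start site 8957 bp upstream lay under peaks of 10.1, 13.5 and 10.3, weaker than the canonical peak in each list. In MDA-MB-231 replicate 2 a separate peak of 20.5 and 1864 bp lay between these, from 6857 to 4994 bp upstream of the canonical start. In both Hs578T lists this stretch was part of 1 wider peak of 5779 and 5334 bp.

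ACTA2, the classical marker of smooth muscle and myofibroblasts, had the smallest share of its locus under peaks. The canonical start site was at position 88952773 of chromosome 10 (minus strand), and the nearest peak was 22019, 16648 and 37884 bp away and had a fold enrichment of 3.42, 2.30 and 2.47. The start of its long transcripts, 38559 bp upstream, lay under a peak of 2.65, 2.91 and 2.47. That peak also lay within 1 kb of the canonical start site of FAS, the death receptor gene on the opposite strand, so it cannot be told to which gene it belongs. The ACTA2 promoter entry held 6 CpG dinucleotides (percentile 35.2), against 50 for ACTG1, 38 for CNN2, 35 for TPM4, 23 for SRF and 18 for TAGLN2, with a median of 14 over all entries.

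Other start sites followed the main ones only in part. The start site of the long ACTB transcript, 33301 bp upstream, lay within 1 kb of weak peaks of 6.07, 4.95 and 4.19, and inside the peak in Hs578T replicate 1 alone. The ACTG1 start site 11048 bp upstream and the TAGLN start sites 2380 and 2503 bp downstream were without peaks. If any basic start site was allowed, all 10 members were marked in each large list, beside 57.6% of all protein-coding genes by the same rule. ACTA2 entered this count only through the weak peak that also lay at the start site of FAS. Members had from 1 to 16 such sites.

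Across the whole loci, 69 peaks in MDA-MB-231 replicate 2, 69 in Hs578T replicate 1 and 62 in Hs578T replicate 2 lay in the gene bodies and 50 kb flanks, and none in MDA-MB-231 replicate 1. They covered 153077, 175067 and 155749 bp of 1221641 bp, which is 12.5%, 14.3% and 12.8%. In Hs578T the mean was 165408 ± 13660 bp (SD, n = 2). The mean over both MDA-MB-231 lists was 76538.5 ± 108242 bp (SD, n = 2), which reflects the list without peaks. A start site of another gene lay within 1 kb of 17, 17 and 16 of these peaks (24.6%, 24.6% and 25.8%), and these peaks cannot be assigned to the member alone. For a single protein-coding gene the median share of its window under peaks was 3.78%, 4.17% and 3.82%, and 9 of 10 members lay above it in each list.

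**Figure D3:**
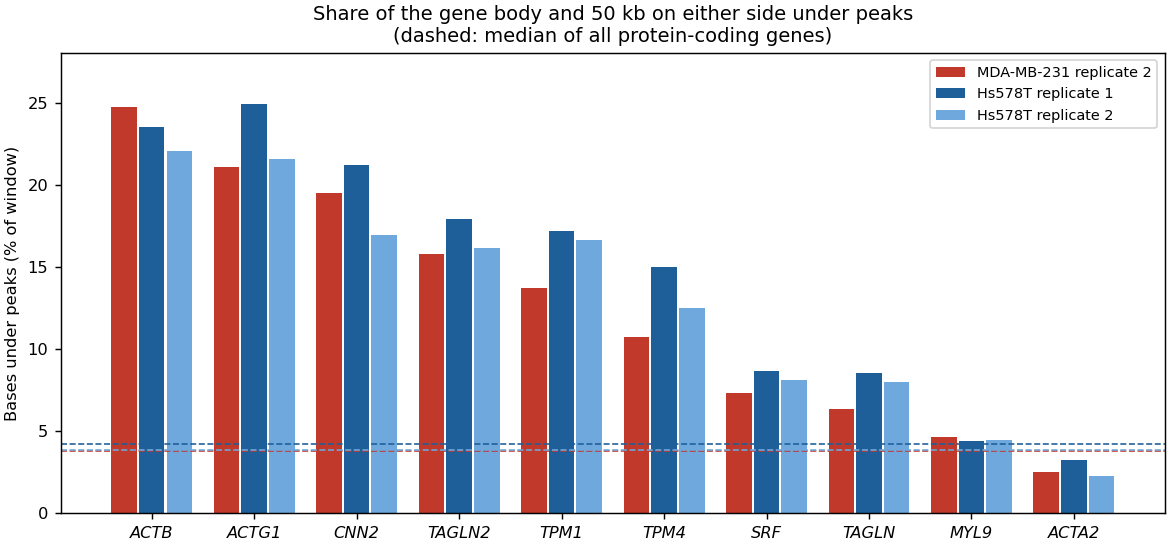
Percent of the bases of each member's gene body and 50 kb flanks that lay under peaks in the 3 large lists; bars start at 0 and dashed lines are the medians over all protein-coding genes (3.78%, 4.17% and 3.82%). ACTB and ACTG1 have the tallest bars, MYL9 sits just above the medians and ACTA2 below them.

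ACTB had 24.8%, 23.5% and 22.1% of its window under peaks, at percentiles of 98.2, 96.9 and 97.2 of all genes. ACTG1 had 21.0%, 24.9% and 21.6%, so that neither actin was ahead in every list. CNN2 with 19.5%, 21.2% and 16.9%, TAGLN2 with 15.8%, 17.9% and 16.1%, TPM1 with 13.7%, 17.2% and 16.6% and TPM4 with 10.7%, 15.0% and 12.5% followed. SRF had 7.28%, 8.62% and 8.11%, TAGLN 6.32%, 8.50% and 7.95%, and MYL9 4.65%, 4.39% and 4.47%. ACTA2 had 2.50%, 3.24% and 2.22%, at percentiles of 38.1, 42.1 and 35.1. TPM1 without a promoter peak was thus covered more than MYL9 with one.

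The ACTB locus held several strong stretches in every large list. Besides the promoter peak, a peak inside the long transcript, from 28336 to 22370 bp upstream of the canonical start in MDA-MB-231 replicate 2 (chr7:5552971-5558937), had a fold enrichment of 17.4, and its counterparts in Hs578T had 10.9 and 8.60. In Hs578T replicate 2 it nearly equalled the promoter peak (8.66). The peak at the start of the neighbouring FBXL18, which encodes an F-box protein, had 15.5, 14.2 and 11.4. It was above the ACTB promoter peak in both Hs578T lists. A peak overlapping FSCN1, from 67196 to 63521 bp upstream in MDA-MB-231 replicate 2, had 11.2, 10.1 and 7.92.

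At TPM1 the strongest peaks of the locus lay past the end of the gene. The strongest began 24389 bp past the gene end in MDA-MB-231 replicate 2 (chr15:63096304-63098625) and had a fold enrichment of 23.6. In Hs578T it had 15.0, as part of a wider peak of 5110 bp, and 15.7. A further peak, 35247, 35144 and 35348 bp past the gene end, had 15.7, 15.2 and 13.3. It was slightly the stronger of these peaks in Hs578T replicate 1. There the wider peak took in a weaker neighbour, called apart at 5.86 in MDA-MB-231 replicate 2 and 6.17 in Hs578T replicate 2. The order in that list therefore compares unlike stretches. Both lay within the annotated gene ENSG00000259672, and which gene they act on was not measured.

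**Figure D4:**
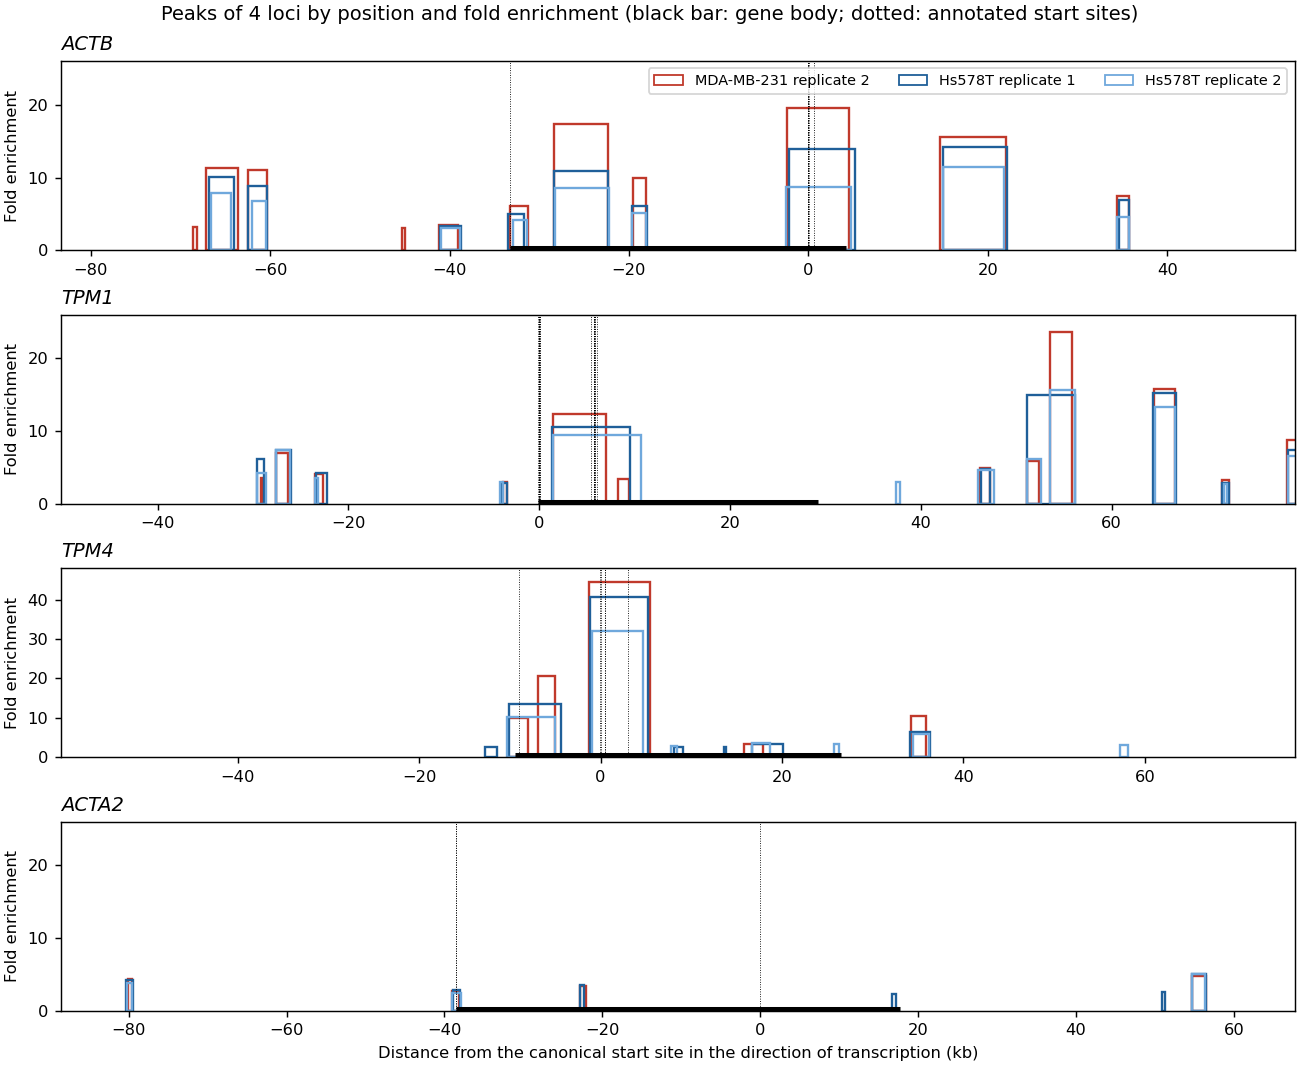
Peaks at ACTB, TPM1, TPM4 and ACTA2 in the 3 large lists, each drawn as an open box from its first to its last base (distance in kb from the canonical start site, along transcription) with its fold enrichment as height; the height scale of TPM4 differs from the others. Black bars are gene bodies and dotted lines annotated start sites; ACTB shows strong boxes at its start site and on both sides, TPM1 inside and past the gene, TPM4 at its start sites, and ACTA2 only low boxes.

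The remaining loci were simpler. TAGLN2 had a peak at its 3′ end of 11.7 in MDA-MB-231 replicate 2, which in Hs578T merged with a flanking peak into widths of 9737 and 8535 bp. TAGLN had a peak at its 3′ end of 7.58, 4.88 and 4.85, which also overlapped PCSK7 and was above the promoter peak in MDA-MB-231 replicate 2 alone. MYL9 had no other peak within 50 kb in 2 lists than those at its own start and at that of TGIF2. SRF had its own promoter peak, a peak shared with the start of CUL9, and weak peaks, at DNPH1 in 2 lists and in PTK7. Start sites of the neighbours FSCN1, FSCN2, FAAP100, FAS, SIDT2, PCSK7, RNF214, CFAP45, WDR18, TMEM259, ABCA7, ARHGAP45, TGIF2, TGIF2-RAB5IF, CUL9, LACTB and RAB8A also lay within 1 kb of peaks in all 3 large lists.

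When overlapping peaks were merged across the 3 large lists, the member loci held 78 regions. Of these, 52 (66.7%) were present in all 3 lists, 9 (11.5%) in 2 lists and 17 (21.8%) in 1 list. Over all 50576 regions merged in the same way these shares were 74.8%, 10.0% and 15.2%. Regions in all 3 lists had a median highest fold enrichment of 8.28, against 3.09 for those in 2 lists and 2.77 for those in 1 list. The highest value was taken over the lists that held a region, which by construction favours regions in more lists. It also pools fold enrichments of different libraries, so the medians are only a rough guide. The 17 single-list regions were spread over the lists (5, 7 and 5), and 3 regions (3.85%, beside 5.51% of all regions) were found by both Hs578T replicates and absent from MDA-MB-231 replicate 2. At TAGLN2 all 5 regions were shared, whereas at CNN2 and TPM4 5 of 12 and 4 of 9 were in a single list.

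The peaks of the member loci held a CArG box in 18.8%, 17.4% and 19.4% of cases, beside 9.59%, 10.1% and 9.79% of all peaks. Per kb of peak this was 0.130, 0.119 and 0.134 boxes, beside 0.0577, 0.0585 and 0.0595. With at most 1 mismatch in the central bases, 47.8%, 49.3% and 54.8% of member peaks held an element, beside 39.0%, 39.8% and 39.0%. Per kb this was 0.446, 0.415 and 0.453, beside 0.340, 0.342 and 0.345, a smaller gap in proportion. Since the members were picked as known SRF targets, these shares too are not independent evidence about SRF. The AP-1 motif (TGACTCA or TGAGTCA) was in 42.0%, 43.5% and 43.5% of member peaks and in 45.6%, 45.7% and 44.8% of all peaks. Per kb of peak it was less frequent at the members, with 0.254, 0.239 and 0.217 beside 0.375, 0.365 and 0.371. The TEAD motif (GGAATG) was in 56.5%, 58.0% and 56.5%, beside 58.1%, 58.4% and 57.8%. Its counts per kb were 0.589, 0.648 and 0.600, beside 0.657, 0.657 and 0.666. Motifs were searched on both strands, and the AP-1 letters are each other's reverse complement. The peaks counted for members are also part of all peaks.

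CArG boxes under peaks were unevenly spread over the members. ACTB had 13 boxes in its window, 7 of them under peaks in all 3 large lists. SRF had 3 of 5, ACTG1 2 of 4, TAGLN 2 of 4, TPM1 2 of 8, TPM4 2 of 6, CNN2 1 of 2 and MYL9 1 of 5. ACTA2 had 9 boxes and TAGLN2 8, and none of these lay under a peak in any list. TAGLN2 was therefore among the most strongly marked members with no CArG box under its peaks. The third box of SRF lay in its gene body, outside annotated exons.
SRF, 3039 bp downstream of the start site, chr6:43174288-43174337, plus strand: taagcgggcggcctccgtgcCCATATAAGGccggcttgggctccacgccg

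Among other genes of the pathway, the lists held textbook members of each group, and each count can be read against the 55.6% of all protein-coding genes marked in the 3 large lists. Of 6 SRF cofactors, 5 had a promoter peak in each large list. The ternary complex factors ELK3 (17.6, 22.3 and 18.6) and ELK4 (21.5, 18.1 and 11.96) had strong peaks. The coactivators MRTFA (6.29, 4.57 and 4.43) and MRTFB (5.47, 4.56 and 4.07) and the factor ELK1 (4.51, 4.97 and 4.39) had weak ones. MYOCD, the cofactor restricted to heart and smooth muscle, had none.

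Of 11 paralogs of the members, 5 (45.5%) were marked in each large list, near the 55.6% of all genes, and 6 in none. Marked were the myosin light chains MYL12A (19.4, 19.8 and 16.1), MYL12B (20.8, 13.4 and 14.3) and MYL6, the calponin CNN3 and the tropomyosin TPM2. Without a peak were the skeletal, cardiac and enteric muscle actins ACTA1, ACTC1 and ACTG2, the smooth muscle calponin CNN1, the neuronal transgelin TAGLN3, and TPM3, which was marked at another start site in all 3 lists. Of 8 genes of the smooth muscle contractile list, which shares ACTG2 and CNN1 with the paralogs, 2 were marked, SMTN and MYLK.

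Of 20 further SRF target genes, 19 were marked in each large list. The highest percentiles were those of CCN1, a secreted matricellular protein, with 46.8, 47.1 and 37.5, of the filament crosslinker ACTN1 with 34.8, 31.2 and 22.1, and of PDLIM7 with 28.6, 30.6 and 22.7. FHL1 was unmarked at the canonical start but marked at another start site. All 16 genes of actin assembly and turnover were marked, led by CAP1 (31.6, 29.7 and 25.8), the monomer-binding profilin PFN1 (27.1, 18.9 and 15.3) and the severing cofilin CFL1 (24.1, 18.8 and 14.1). None of these genes was marked in MDA-MB-231 replicate 1.

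Finally, for each marked member the protein-coding gene with the most similar promoter peaks was sought among 11111 genes, by Euclidean distance over 6 percentiles (width and fold enrichment in the 3 large lists). TPM4 was nearest to C8orf58 (distance 1.35), ACTG1 to YWHAZ (1.67), TAGLN2 to RNF5 (2.01) and SRF to BCL10 (3.54). Further away were the nearest genes of CNN2 (ZBTB45, 6.01), TAGLN (MRFAP1L1, 7.37), MYL9 (CFAP20DC, 8.35) and ACTB (PAWR, 8.43). No nearest gene was itself a member or on a pathway list, and likeness of peaks says nothing of shared function.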

How the data were processed

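H3K27ac ChIP-seq peak lists of 4 libraries, 2 per line, were analysed. After adaptor removal (Trimmomatic per the labels), the authors used Bowtie2 for mapping to hg38 and MACS2, with input subtracted, for calling peaks per library. They then took out blacklisted regions with bedtools. Versions and MACS2 settings were not given in the sources used here, and broad mode was inferred from the columns. In the deposited lists, column 7 is the fold enrichment (a ratio over background), column 8 the −log10 p-value and column 9 the −log10 q-value, and the score column was not used. Because input was subtracted, peaks also depend on the input library.

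Gene models were from GENCODE release 44 (assembly 38), with the Ensembl canonical start site. Where several peaks met a start-site window, the peak with the highest fold enrichment was taken. Percentiles were computed within each list over all marked protein-coding genes. Python 3.11.15, pandas 2.3.3 and numpy 2.4.6 were used, and the peak assignment was tested on simulated data.

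No test between lines was made, since 2 lists per line allow 3 splits and an exact two-sided p-value of at least 0.333. Named genes were all 10 members, genes of the SRF cofactor, paralog, SRF target and actin assembly lists without a promoter peak or with a call that differed, the 3 of each of these lists with the highest mean percentile, neighbours with marked start sites, and the gene nearest to each member in profile. MRTFB, ELK1, CNN3, TPM2 and the marker genes were named after their values were seen. Members and lists were chosen with earlier results of these data known. Alternatives were other start-site windows and sites, flanks of 10 or 100 kb or none, merging within 1 kb, the strongest 50%, equal numbers of peaks, percentiles over all peaks or of column 9, other motif settings, peaks at other start sites left out, and leaving out each list. Some items, among them a marker gene and some sequences, are not reported here.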

Additional observations from a re-analysis of the deposited data

How the results depend on the processing

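Of 46 alternative values over 9 results, 33 stayed within the limits given next and 13 moved. A count of genes moved if it differed by more than 1.5 times, and another value if it differed by more than 1 SD of the replicates or, where there was no SD, at all. For covered bases in MDA-MB-231 (main mean 76538.5 bp) the SD of 108242 bp came from the list without peaks. None of its alternatives therefore counted as moved, not even 0.0 and 153077 bp with a list left out. The 33 values are thus no measure of robustness for that result. Marked members in MDA-MB-231 (main mean 4.0) ranged from 0.0 to 8.0 when a list was left out, and those in Hs578T stayed between 8.0 and 10.0 in every alternative run, with 9.0 for a window of 2 kb, which took in TPM1, and 10.0 for all basic start sites. The run over all basic start sites counted ACTA2 by the peak that also lay at the start site of FAS. Merging peaks within 1 kb raised the median promoter peak width in Hs578T from 4779.5 to 5181 bp. The median percentile of fold enrichment in MDA-MB-231, 93.9 with 1 list and hence no spread, was 93.9 with a window of 500 bp, 96.2 over all peaks and 92.5 by column 9. In Hs578T it went from 85.1 to 90.1 over all peaks and 89.0 by column 9. Covered bases in Hs578T, 165408 bp with 50 kb flanks, were 95760 bp with 10 kb, 264809 bp with 100 kb, 65532 bp in the gene bodies alone, 122619 bp without peaks at the start sites of other genes and 132112 bp for the strongest 50% of peaks, each by construction of a smaller or larger region or list. No paired analysis was possible because the results come from no test. Depth was unknown, so a weak region missed in a list may lie under its threshold, and nothing here separates MDA-MB-231 from Hs578T beyond 1 usable MDA-MB-231 list.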
